A study of Mus musculus with 12 samples.

Results

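The question was whether the hippocampus of mice lacking CREB and CREM answered kainate differently from that of control mice. For each probe set the interaction was computed as the kainate minus saline difference in mutant mice minus the same difference in control mice. It used all 12 arrays of the series, 3 in each of 4 groups, and was tested for 3541 probe sets of 2387 named genes. A negative interaction means that the log2 value rose less, or fell more, after kainate in mutants.

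The groups were control mice given saline, control mice given kainate, mutant mice given saline and mutant mice given kainate. The mutants carried a loss of CREB and CREM, and the labels name neither the alleles behind it, nor the cells in which it took place, nor the genotype of the controls. Littermates of both sexes, 5 to 6 weeks old and housed singly, received kainate at 20 mg/kg or saline by intraperitoneal injection, and hippocampi were taken 1 hour later. Each array (Affymetrix Murine Genome U74 array C) was hybridised with the pooled RNA of 3 animals, so the errors below describe pools and not single mice. Values are log2 GCRMA values, and 1 unit is a 2-fold difference.

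Kainate is an agonist of ionotropic glutamate receptors that causes seizures and within an hour switches on immediate early genes in hippocampal neurons. CREB, the cAMP response element binding protein, and its relative CREM are transcription factors that bind the cAMP response element (CRE) in promoters and are activated by phosphorylation downstream of calcium and cAMP. Immediate early genes are also driven by serum response factor, which binds the CArG box, so a gene can keep or lose its induction when CREB and CREM are missing.

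The promoters of 4 genes that the results turn on are shown so that the presence or absence of CRE letters near the start can be read beside their responses. They run 5′ to 3′ on the strand of the gene, from 250 bases before to 50 bases after the RefSeq start (build GRCm38.p6), and capitals mark each short CRE (TGACG or its complement CGTCA). Kcnj2 lies at chr11:111065914-111066213 on the plus strand, Apold1 at chr6:134981751-134982050 on the plus strand, Egr4 at chr6:85513540-85513839 on the minus strand and Rgs4 at chr1:169747593-169747892 on the minus strand.
Kcnj2: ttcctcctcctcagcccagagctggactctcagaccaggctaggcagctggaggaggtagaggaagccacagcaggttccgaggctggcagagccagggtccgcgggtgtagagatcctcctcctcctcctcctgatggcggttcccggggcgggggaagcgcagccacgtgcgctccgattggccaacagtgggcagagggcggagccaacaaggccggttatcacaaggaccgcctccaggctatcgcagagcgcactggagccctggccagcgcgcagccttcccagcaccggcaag
Apold1: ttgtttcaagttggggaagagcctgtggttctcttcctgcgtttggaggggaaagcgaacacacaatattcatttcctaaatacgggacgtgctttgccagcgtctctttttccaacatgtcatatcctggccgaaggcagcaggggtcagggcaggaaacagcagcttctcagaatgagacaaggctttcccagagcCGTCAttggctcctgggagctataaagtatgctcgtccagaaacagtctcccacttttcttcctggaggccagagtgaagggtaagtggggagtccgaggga
Egr4: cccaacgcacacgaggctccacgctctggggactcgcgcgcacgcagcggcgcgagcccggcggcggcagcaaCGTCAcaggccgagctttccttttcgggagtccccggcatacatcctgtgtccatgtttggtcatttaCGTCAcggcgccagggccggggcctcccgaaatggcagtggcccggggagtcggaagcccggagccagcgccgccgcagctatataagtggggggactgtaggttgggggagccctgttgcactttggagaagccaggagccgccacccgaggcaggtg
Rgs4: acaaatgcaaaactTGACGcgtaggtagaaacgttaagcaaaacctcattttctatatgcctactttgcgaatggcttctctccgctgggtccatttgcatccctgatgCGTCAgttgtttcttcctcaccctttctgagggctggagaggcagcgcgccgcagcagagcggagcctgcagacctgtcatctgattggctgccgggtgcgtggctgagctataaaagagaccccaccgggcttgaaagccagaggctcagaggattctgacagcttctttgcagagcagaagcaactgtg
The Kcnj2 window had no short CRE. The Apold1 window had 1, at 52 bases before the start, Egr4 had 2, at 177 and 109 bases, and Rgs4 had 2, at 236 and 141 bases. None of the 4 windows held the full CRE (TGACGTCA) or a CArG box.

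Before the results, 2 arrays need a description. The array labelled control kainate 3 had values like those of mutants for genes that differ between genotypes. On a score over the 50 probe sets that best parted mutant from control saline arrays, where control saline averages 0 and mutant saline 1, it reached 0.90, while the other 5 control arrays ran from -0.07 to 0.11 and the mutant arrays from 0.73 to 1.49. The array labelled mutant kainate 3 was weak: its SD over tested probe sets was 1.51 against 1.68 to 1.79 on the other arrays, and it correlated with the other mutant kainate arrays at 0.818 and 0.899. For Fbll1 and Gfap, whose values are given below, each of these arrays lay near the other genotype, although the score of mutant kainate 3 was 1.49. Whether the labels of the 2 arrays were exchanged was not tested, and the values without both arrays use neither. On the first principal component, which held 53.2% of the variance, mutant kainate 3 lay at 0.88 and the other arrays from -0.23 to 0.14. On the second, which held 22.9%, replicate 1 lay from 0.28 to 0.37. There mutant kainate 3 lay at 0.23, and the other arrays of replicates 2 and 3 lay from -0.39 to 0.01. On replicates 2 and 3 the 3′ minus 5′ signal of actin, a sign of RNA length, was 2.20 to 2.44 on kainate arrays and 1.74 to 1.83 on saline arrays. The part of these differences in the results was not tested, and for the genes described in most detail the values within replicate 1, within replicates 2 and 3, and without both arrays are given. The values without both arrays come from a fit with replicate 1 against replicates 2 and 3 as a block.

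No gene passed the test of the interaction. In limma with Benjamini-Hochberg adjustment over all probe sets, 0 of 3541 (0.0%) had an adjusted p under 0.05, and the lowest adjusted p was 0.973. At an unadjusted p under 0.05 there were 31 (0.875%), 24 with a negative (0.678%) and 7 with a positive interaction (0.198%). An unadjusted p under 0.05 would be met by 5% of independent probe sets with no interaction, or 177. Each of 23 other settings also gave 0 adjusted calls, with 4 to 260 unadjusted ones.

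The kainate differences of control and mutant mice, which share no array, correlated over the 3541 probe sets at r = 0.587 (Spearman 0.437). Within replicate 1 r was 0.366 and Spearman only 0.132. The values were 0.546 (Spearman 0.430) within replicates 2 and 3 and 0.734 (Spearman 0.548) without both doubted arrays. These are correlations across probe sets that share arrays and normalization, and are given without a p. The 95% interval of the interaction included 0 and lay inside a 2-fold difference in either direction for 2191 probe sets (61.9%). For 31 it left out 0, and for the rest the data did not fix the size to within 2-fold. Of the 3541 probe sets, 1634 had a mean log2 value of only 4 to 5, with interaction quartiles of -0.12 and 0.03. A narrow interval of a dim probe set, or of a gene that did not respond, does not show an equal response.

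**Figure D1:**
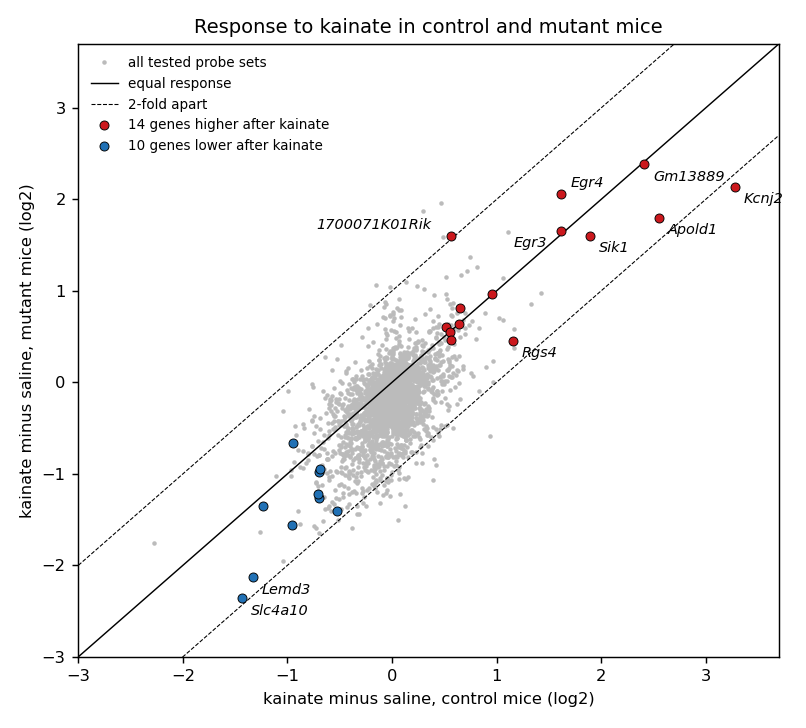
Kainate minus saline in control mice (x axis) against the same difference in mutant mice (y axis), both log2, for 3541 probe sets, with 14 genes higher after kainate in red and 10 lower in blue. The solid line marks equal responses and the dashed lines a 2-fold difference between them. Kcnj2, at 3.28 in controls and 2.14 in mutants, lies outside the lower dashed line, and Egr3, at 1.61 and 1.66, lies on the solid line.

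The interaction was below 0 for 73.5% of probe sets, with a median of -0.09, and 40.9% were below 0 both within replicate 1 and within replicates 2 and 3, against 8.44% above 0 in both. This lean moved with mutant kainate 3. With all arrays the median interaction was -0.05 for probe sets with a mean log2 value of 4 to 5, -0.34 for those of 6 to 8 and -0.34 for those of 8 to 10. Without mutant kainate 3 these medians were -0.07, -0.00078 and 0.02, and the share below 0 over all probe sets was 60.3%. After a further quantile normalization, which gives each array the same distribution, the share was 49.9%. Interactions of single genes are therefore read beside the median of -0.09, and counts of negative ones beside 73.5%. These values pool many dim probe sets. With all arrays the share below 0 was 67.3% for a mean of 4 to 5, 82.8% for 6 to 8 and 91.1% for 8 to 10. For brighter genes the median and share of their own level are the closer comparison.

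**Figure D2:**
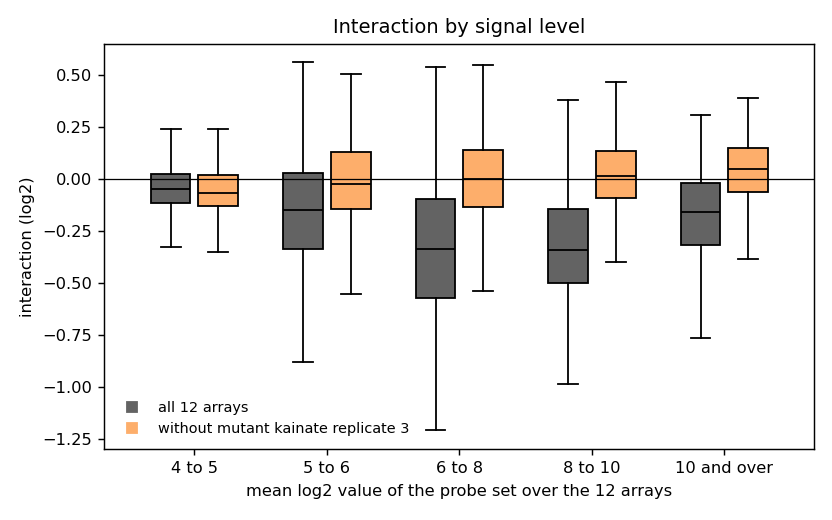
Interaction (log2) by the mean log2 value of the probe set over the 12 arrays, for all 12 arrays in grey and without mutant kainate replicate 3 in orange. Boxes span the quartiles with the median as a line, and whiskers reach the most distant value within 1.5 times the box length, with values beyond left undrawn. Probe sets from 6 to 10 have a median near -0.34 with all arrays and near 0 without that array.

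To ask about the interaction in genes that answer kainate at all, 24 genes were chosen on the kainate difference averaged over both genotypes. In this balanced design the choice is independent of the interaction only where both genotypes spread alike. Over all probe sets the kainate difference had an SD of 0.376 in mutants and 0.267 in controls. A choice on the average can therefore favour interactions of the same sign as the average. The averaged difference passed the test for 5 probe sets (0.141%), of Kcnj2, Apold1, Sik1, Egr3 and Gm13889, all higher after kainate. A further 9 higher and 10 lower genes had an unadjusted p under 0.01, as did 33 probe sets higher (0.932%) and 64 lower (1.81%) over the whole array. Among the 14 higher genes, every kainate array lay above every saline array for 10 in controls (6.02% of all probe sets) and for 9 in mutants (1.67%), but the genes were chosen on these values. Of the 14 interactions 8 were negative and 6 positive, with a median of -0.01, against 73.5% negative and -0.09 over all probe sets. For 5 genes the interval lay inside 2-fold (Egr3, Rasgef1b, Fcsk, Atg101 and 1700113H08Rik), for 2 it left out 0 (Kcnj2 and Rgs4, both smaller in mutants), and for 7 it did neither. Among these genes Rasgef1b, Fcsk and 1700113H08Rik rose little or not at all within replicate 1, as given below. Without both doubted arrays 5 of 14 were negative, with a median of 0.09. In pooled tissue, fewer responding cells and less RNA per cell cannot be told apart.

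Egr3 and Egr4 are zinc finger transcription factors of the early growth response family, and immediate early genes of neurons. Egr3 stood at 9.41, 9.07 and 9.05 on the control saline arrays and 10.94, 10.76 and 10.68 on the control kainate arrays. The mutant arrays read 9.24, 8.28 and 8.57 after saline and 10.82, 10.20 and 10.05 after kainate. Kainate and saline arrays did not overlap in either genotype, and both levels lay a little lower in mutants, with overlap between genotypes. Egr3 gained 1.61 ± 0.26 (SE, n = 3 arrays a group) in controls and 1.66 ± 0.26 in mutants, an interaction of 0.04 ± 0.37 with a 95% interval of -0.79 to 0.88. It was 0.05 within replicate 1, 0.04 within replicates 2 and 3 and 0.14 without both doubted arrays. The induction of Egr3 was thus measured as the same to within 2-fold. A dimmer second probe set gave -0.45 ± 0.88, which leaves the size unsettled on its own.

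For Egr4 the replicates split. The control values were 4.70, 4.58 and 4.62 after saline and 6.16, 6.58 and 6.02 after kainate. In mutants they were 4.69, 4.69 and 4.19 after saline and 5.25, 7.55 and 6.94 after kainate. Mutant kainate 1 lay below every control kainate array, and mutant kainate 2 and 3 lay above all of them. The interaction was 0.44 ± 0.68 (95% interval -1.09 to 1.96), made of -0.90 within replicate 1 and 1.11 within replicates 2 and 3, and was 0.14 without both doubted arrays. No direction can be given for Egr4.

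Sik1 encodes salt-inducible kinase 1, which phosphorylates the CREB co-activators of the CRTC family and so keeps them out of the nucleus. Its control values were 5.21, 5.36 and 4.59 after saline and 6.91, 7.49 and 6.44 after kainate. Mutant arrays read 4.39, 4.41 and 4.43 after saline and 5.83, 6.28 and 5.92 after kainate. Every mutant array lay below every control array of the same treatment, yet kainate added 1.89 ± 0.27 in controls and 1.60 ± 0.27 in mutants. The interaction was -0.29 ± 0.38 (95% interval -1.15 to 0.57), -0.26 within replicate 1, -0.31 within replicates 2 and 3, and -0.50 without both doubted arrays. The lower level was measured on both treatments, at 0.64 ± 0.27 below controls after saline and 0.93 ± 0.27 below them after kainate.

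Kcnj2 had the largest kainate gain in controls among the 14 genes, and its gain was smaller in mutants. It encodes Kir2.1, an inward rectifier potassium channel subunit that holds the resting potential near the potassium equilibrium and damps excitability. The control values were 5.91, 6.55 and 6.19 after saline and 9.37, 9.52 and 9.60 after kainate. The mutant values were 6.65, 6.70 and 6.84 after saline and 9.09, 9.23 and 8.27 after kainate. Every mutant saline array lay above every control saline array, and every mutant kainate array lay below every control kainate array. Kcnj2 rose by 3.28 ± 0.24 (9.71-fold, limma adjusted p = 0.000649) in controls and by 2.14 ± 0.24 (4.39-fold, limma adjusted p = 0.027) in mutants, and in each genotype it was the only probe set to pass (0.0282% of those tested).

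The Kcnj2 interaction was -1.14 ± 0.34 (95% interval -1.91 to -0.38), so the fold of mutants was 0.452 times that of controls (0.266 to 0.769). In limma its adjusted p was 0.973. It was -1.02 within replicate 1, where 1 array stands for each group, and -1.21 within replicates 2 and 3. Without both doubted arrays it was -0.80 ± 0.19 (limma adjusted p = 0.979). Over all 23 other settings it ran from -1.32 to -0.80, with an unadjusted p under 0.05 in each and an adjusted p of 0.59 or more. On the group means the smaller gain came from both ends, with mutants 0.51 ± 0.24 higher after saline and 0.63 ± 0.24 lower after kainate. The 95% interval was -0.03 to 1.05 after saline and -1.18 to -0.09 after kainate. Neither difference passed adjustment (limma adjusted p = 0.435 and 0.550). Mutant kainate 3, the weak array, was the lowest of the kainate arrays, and the interaction without it was the smallest of those that left out 1 array, at -0.85.

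Rgs4, a regulator of G protein signalling that speeds the inactivation of Gi and Gq alpha subunits, was the other gene whose interval left out 0. Its control values were 8.61, 8.89 and 8.85 after saline and 10.01, 9.77 and 10.04 after kainate. Those of mutants were 8.74, 9.14 and 9.36 after saline and 9.88, 9.63 and 9.10 after kainate. The treatments did not overlap in controls, while in mutants kainate 3 fell among the saline arrays. Probe sets with a mean log2 value of 8 to 10 had a median interaction of -0.34. For Rgs4 the interaction was -0.70 ± 0.30 (95% interval -1.38 to -0.02, limma adjusted p = 0.973). It was -0.26 within replicate 1 and -0.92 within replicates 2 and 3. Without both doubted arrays it was -0.43 ± 0.27, and its unadjusted p was under 0.05 in 6 of the 23 other settings.

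**Figure D3:**
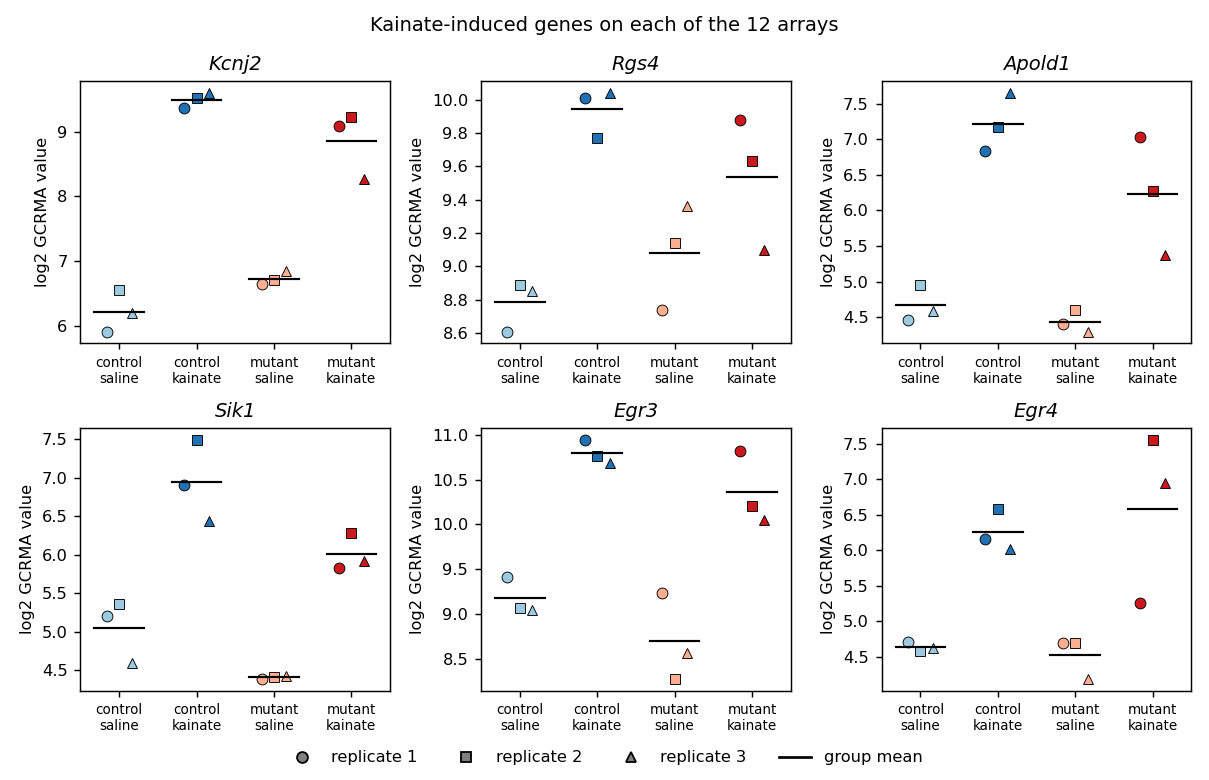
Log2 GCRMA value (y axis) of Kcnj2, Rgs4, Apold1, Sik1, Egr3 and Egr4 on each array, by genotype and treatment (x axis), with replicates 1, 2 and 3 as circles, squares and triangles and group means as bars. Kcnj2 in mutants starts above and ends below the controls, Sik1 is lower in mutants on both treatments, and Egr4 in mutants spreads from 5.25 to 7.55 after kainate.

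Apold1, the apolipoprotein L domain containing 1 gene, is an early response gene of endothelial cells. Its control values were 4.46, 4.95 and 4.59 after saline and 6.83, 7.17 and 7.65 after kainate. The mutant values were 4.40, 4.60 and 4.30 after saline and 7.03, 6.28 and 5.38 after kainate. The saline arrays of both genotypes overlapped, and after kainate 1 mutant array lay among the controls and 2 lay below them. The interaction was -0.75 ± 0.52 (95% interval -1.92 to 0.42), with 0.26 within replicate 1 and -1.26 within replicates 2 and 3. Without both doubted arrays it was -0.11 ± 0.35, a smaller size than with all arrays. On replicate 2 the rise was also smaller in mutants, from 4.60 to 6.28 against 4.95 to 7.17 in controls. Of the other markers of endothelium and pericytes, Flt1, Abcg2 and Acta2 had interactions of -0.18, 0.24 and -0.04.

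Gm13889, a gene of unknown function, was near the floor of the array after saline. The control values were 2.26, 1.75 and 1.81 after saline and 4.93, 4.48 and 3.64 after kainate. In mutants they were 2.36, 1.76 and 1.99 after saline and 3.73, 4.72 and 4.81 after kainate. The interaction of -0.03 ± 0.53 joined -1.30 within replicate 1 and 0.61 within replicates 2 and 3. Its brighter probe set gave 0.54 ± 0.46, with -0.46 and 1.04. The gain was present in both genotypes on both probe sets, and which was larger differed between replicates.

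Among the remaining 7 genes of the higher group, the cDNA-named gene 1700071K01Rik had the largest positive interaction, 1.03 ± 0.58 (95% interval -0.28 to 2.34). Its control values were 6.60, 6.09 and 6.77 after saline and 6.42, 7.37 and 7.38 after kainate, against 5.92, 5.59 and 6.02 and then 6.53, 7.64 and 8.16 in mutants. The mutant saline arrays were the lowest of all, and kainate arrays of both genotypes overlapped. Its interaction was 0.79 within replicate 1, 1.15 within replicates 2 and 3 and 0.83 without both doubted arrays. Lama4, a laminin subunit of vascular basement membranes, had an interaction of 0.16 ± 0.43. Rasgef1b, a guanine nucleotide exchange factor for Rap, had -0.0043 ± 0.34, and Fcsk, the fucose kinase, 0.08 ± 0.32. The autophagy gene Atg101 had -0.10 ± 0.31. Serpinb3a, a serpin, had 0.01 ± 0.55 and 1700113H08Rik -0.01 ± 0.36. Leaving out 1 array at a time, the interactions of these 6 genes ran from -0.25 to 0.42, and those of Lama4 and Serpinb3a had intervals reaching past 2-fold. Second probe sets of Rasgef1b, Atg101 and Fcsk gave -0.63 ± 0.51, -0.48 ± 0.57 and -0.30 ± 0.20. A second probe set of Serpinb3a was lower after kainate, with differences of -0.29 in controls and -0.54 in mutants. The difference between probe sets was not tested. Without both doubted arrays the 6 interactions lay between 0.04 and 0.19. Within replicate 1 the kainate differences of controls and mutants were -0.06 and -0.02 for Fcsk and 0.03 and 0.04 for 1700113H08Rik. They were 0.02 and 0.22 for Rasgef1b and -0.15 and -0.05 for Lama4. Within replicates 2 and 3 these 4 genes rose by 0.72 to 1.24 in each genotype. Atg101 and Serpinb3a rose in both sets of replicates.

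The 10 genes lower after kainate leaned towards a larger fall in mutants, and the lean came from replicates 2 and 3. Of their interactions 9 were negative, with a median of -0.54. The negative share was 73.5% of all probe sets, 71.0% at a mean log2 value of 5 to 6 and 82.8% at 6 to 8. All 10 intervals included 0 and reached past 2-fold. The median was -0.00230 within replicate 1 and -0.81 within replicates 2 and 3, and without both doubted arrays 6 of 10 were negative with a median of -0.24. In controls 6 of 10 had every kainate array below every saline array (4.63% of all probe sets), and in mutants 7 of 10 (8.44%), values that the choice of genes used. That choice can also favour negative interactions, and its part in the lean was not tested.

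Slc4a10, a sodium-dependent bicarbonate transporter of neurons, had the largest fall. Its control values were 6.93, 7.67 and 7.29 after saline and 6.78, 5.68 and 5.12 after kainate. The mutant values were 6.34, 6.95 and 7.12 after saline and 6.18, 4.15 and 3.01 after kainate. Replicate 1 hardly differed between treatments in either genotype, while replicates 2 and 3 were lower after kainate in both. The interaction was -0.93 ± 1.02, with -0.01 within replicate 1, -1.38 within replicates 2 and 3 and -0.58 without both doubted arrays. Cdk17, a cyclin-dependent kinase of the PCTAIRE group, had control values of 8.14, 8.13 and 8.13 after saline and 7.67, 6.94 and 6.93 after kainate. In mutants it had 7.54, 7.72 and 7.95 after saline and 7.59, 5.52 and 5.43 after kainate. Its interaction was 0.54 within replicate 1 and -1.17 within replicates 2 and 3. Over those 8 arrays 158 probe sets had an unadjusted p under 0.05 (4.46%) and 0 passed adjustment.

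Syt11, a synaptotagmin of the vesicle membrane, had an interaction of -0.51 ± 0.44, with 0.10 and -0.82 in the 2 sets of replicates and -0.23 without both doubted arrays. A second bright probe set of Syt11 differed between treatments by only -0.03 in controls and -0.26 in mutants. Its interaction was -0.23 ± 0.30. Lemd3, an inner nuclear membrane protein that antagonises SMAD signalling, had -0.80 ± 1.04, with -0.28 and -1.06, and -0.66 without both arrays. Fam13c had -0.88 ± 0.57, with -0.30 and -1.17, and -0.50 without both arrays. Fam8a1, Lamp2 (a lysosomal membrane protein), Spop (a substrate adaptor of a CUL3 ubiquitin ligase) and Marchf10 (a ubiquitin ligase) had interactions of -0.56, -0.28, -0.25 and -0.11. Without both arrays these were 0.03, 0.08, -0.25 and 0.27, so those of Fam8a1, Lamp2 and Marchf10 lay above 0. Rep15, a Rab15 effector, was the only one of the 10 above 0 with all arrays, at 0.28 ± 0.44 (0.33 without both arrays). The 3′ minus 5′ signal of actin was higher on the kainate arrays of replicates 2 and 3, and its part in these values was not tested.

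**Figure D4:**
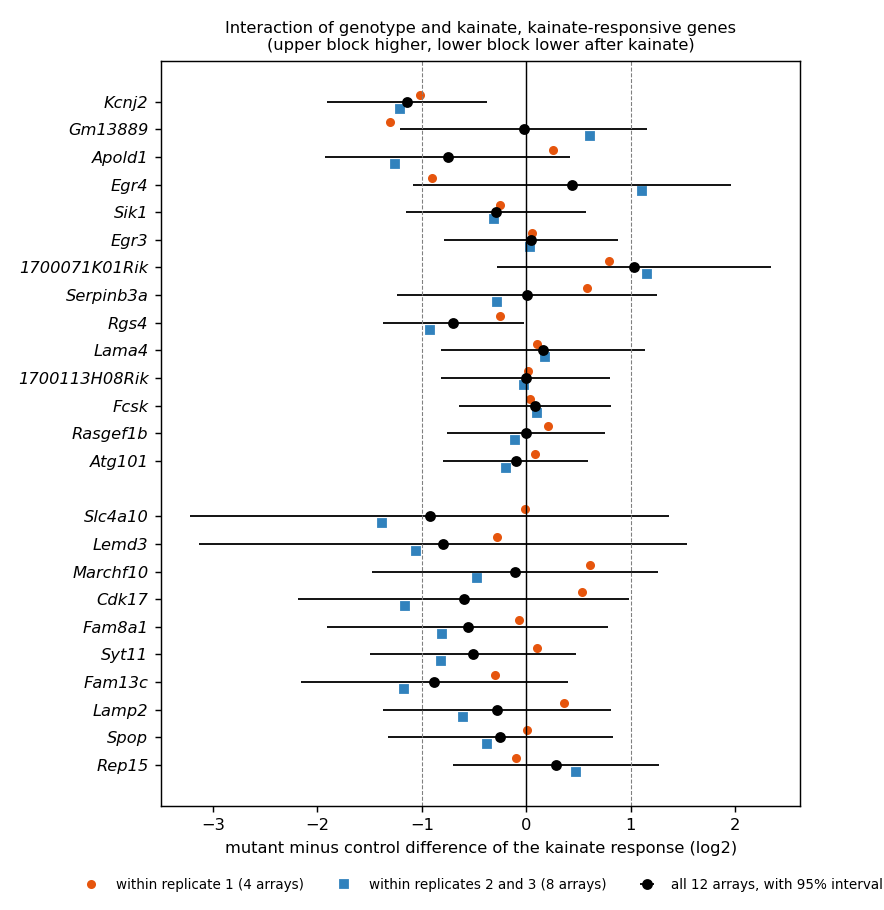
Interaction (x axis, log2, mutant minus control difference of the kainate response) of 24 kainate-responsive genes, with 95% intervals for all 12 arrays in black, the value within replicate 1 in orange and within replicates 2 and 3 in blue. Dashed lines mark a 2-fold difference. The Kcnj2 and Rgs4 intervals lie below 0, and in the lower block 9 of 10 blue squares lie left of 0 while the orange circles lie on both sides.

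Genes ranked on the interaction itself were chosen from it, so their values are a description. None passed adjustment. The lowest p among named genes belonged to Csgalnact1, which encodes an N-acetylgalactosaminyltransferase that starts chondroitin sulphate chains. It stood at 5.96, 5.88 and 6.01 on control saline arrays, 6.04, 5.91 and 5.94 on control kainate arrays, 6.51, 6.57 and 6.39 on mutant saline arrays and 5.98, 6.02 and 6.11 on mutant kainate arrays. The mutant saline arrays stood above all the others, and the mutant kainate arrays were back at the control level. The interaction was -0.47 ± 0.10 (limma adjusted p = 0.973), -0.60 within replicate 1, -0.40 within replicates 2 and 3 and -0.51 without both doubted arrays. It was -0.18 after a further quantile normalization, with an interval that included 0.

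All 3 mutant saline arrays were above the 9 others for 4 of the 10 lowest-p negative genes, Csgalnact1, Col23a1, 1700017N19Rik and Colec12, and for 93 of all probe sets (2.63%). This pattern was the most frequent of its kind over all probe sets. Mutant saline arrays were below all others for 3, and each other group was above or below all others for 10 to 22. Whether mutant saline arrays differ as a whole was not tested. Col23a1, a transmembrane collagen, had group means of 6.27 and 6.33 in controls and 6.83 and 6.29 in mutants, after saline and kainate in turn. Its interaction was -0.59 ± 0.19, with -0.65 and -0.56 in the 2 sets of replicates. Over the 23 other settings it ran from -0.68 to -0.29, with an unadjusted limma p under 0.05 in 21. Colec12, a scavenger receptor with a collectin domain, had -0.70 ± 0.29, which was -0.36 without both doubted arrays. Rnf214, a RING finger protein, differed in form: it stood at 6.45, 6.41 and 6.47 and then 6.67, 6.70 and 6.60 in controls, and at 6.60, 6.41 and 6.56 and then 6.42, 6.2 and 6.13 in mutants. It was thus higher after kainate on the control arrays and lower, with 1 overlap, on the mutant arrays, and its interaction was -0.49 ± 0.12, beside -0.77 ± 0.55 on a second probe set. On the first it was -0.39 within replicate 1, -0.53 within replicates 2 and 3 and -0.45 without both doubted arrays. The remaining genes in this direction were Ifnar1 (-0.76 ± 0.29), a subunit of the type I interferon receptor, Sfxn4 (-0.27 ± 0.11), Acad8 (-0.26 ± 0.11) and 1700017N19Rik (-0.44 ± 0.15), beside Kcnj2 and Rgs4. Ifnar1 had -0.33 within replicate 1 and -0.97 within replicates 2 and 3, and without both doubted arrays it was -0.50 ± 0.28, with an interval that included 0. Without those arrays Sfxn4, Acad8 and 1700017N19Rik had -0.30, -0.31 and -0.54, and the interval of Acad8 then included 0. After a further quantile normalization the interaction of Rnf214 was -0.20 and that of Sfxn4 was above 0, at 0.03. Over the 23 other settings the unadjusted limma p of Rnf214 was under 0.05 in 21.

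In the positive direction Cdkl3, a cyclin-dependent kinase-like gene, had the largest value whose interval left out 0. It stood at 5.43, 5.68 and 5.77 and then 5.54, 5.62 and 6.13 in controls, and at 5.53, 5.20 and 5.13 and then 5.96, 6.08 and 7.10 in mutants. The treatments were apart in mutants only, and the interaction was 0.96 ± 0.41, with 0.32 within replicate 1, 1.28 within replicates 2 and 3 and 0.78 without both doubted arrays. A dimmer second probe set gave -0.08 ± 0.08. Gm11419 had 0.36 ± 0.15, and 0.25 ± 0.11 without both arrays, with an interval that included 0. The next genes had intervals that reached 0 or beyond: Elovl7 (0.41), Txlna (0.83), Fam71a (0.89), Ifi27l2b (0.65), Rxra (0.70), Fbll1 (0.93) and Usp35 (0.12). Fbll1, a fibrillarin-like gene, owed its value to the doubted arrays. It stood at 7.84, 7.78 and 6.51 on the control kainate arrays and 6.52, 6.49 and 7.46 on the mutant kainate arrays, so in both groups replicate 3 lay near the other genotype, and without both arrays the interaction was 0.18.

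**Figure D5:**
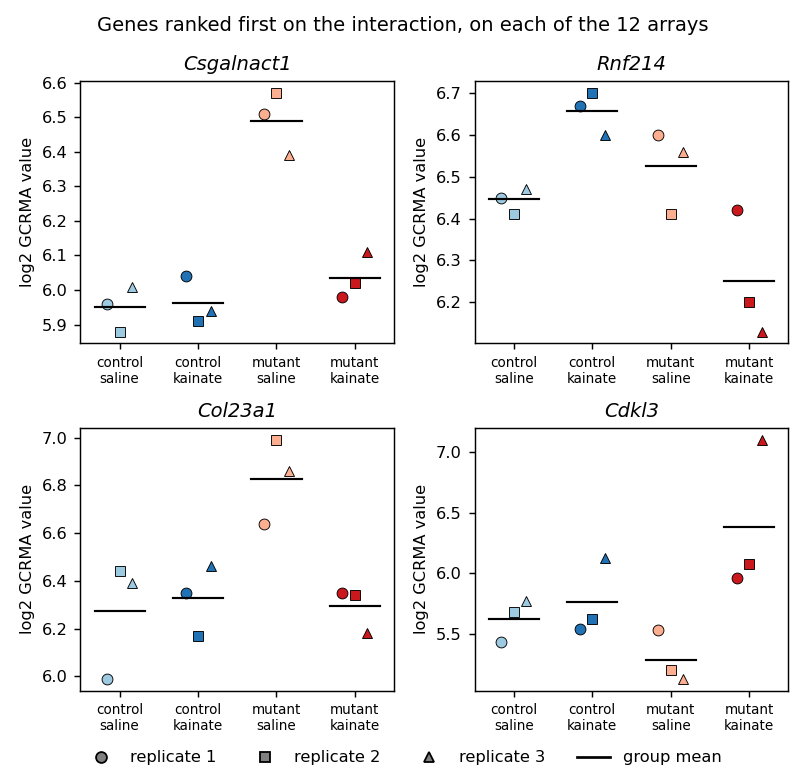
Log2 GCRMA value (y axis) of Csgalnact1, Rnf214, Col23a1 and Cdkl3 on each array, by genotype and treatment (x axis), with replicates 1, 2 and 3 as circles, squares and triangles and group means as bars. Csgalnact1 and Col23a1 are highest on the 3 mutant saline arrays and at control level after kainate.

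Across 25 lists of genes chosen by function or cell type, 139 genes were tested and 0 passed adjustment (0.0%). At an unadjusted p under 0.05, Kcnj2 and Rgs4 were negative and none was positive. The interval included 0 and lay inside 2-fold for 63 of the 139 (45.3%, beside 61.9% of all probe sets). The median interaction was -0.17 with all arrays and -0.04 without both doubted arrays. Of 23 lists with a tested member, 22 had a median below 0 with all arrays and 16 without both doubted arrays.

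Of the activity-induced transcription factors 7 of 49 listed were tested, with a median interaction of -0.03 and 5 intervals inside 2-fold. Beside Egr3 and Egr4 these included Jun, an AP-1 subunit, at 0.02 ± 0.08, and Stat3 at -0.03 ± 0.08, both of which differed little between treatments in either genotype on these probe sets. Of the activity-induced effector genes 14 of 74 were tested, with a median of -0.27 that was -0.03 without both doubted arrays. Penk, which encodes the enkephalin precursor, had 0.12 ± 0.44, with a kainate difference of 0.29 in controls and 0.41 in mutants. Of 50 textbook CREB target genes 7 were tested, Egr3, Egr4, Crem, Sik1, Penk, Vip and Bcl2, with a median of -0.01 (-0.00480 without both doubted arrays) and 3 intervals inside 2-fold. The 3 were those of Egr3, Crem and Bcl2. Bcl2, the apoptosis inhibitor, had -0.01 ± 0.09. Crem and Bcl2 differed little between treatments, by 0.01 and -0.09 in controls and by -0.13 and -0.10 in mutants. Their intervals therefore do not bear on an induction.

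In the CREB family 4 genes were tested, and all 4 intervals lay inside 2-fold. Crtc1 and Crtc3, co-activators of CREB, had interactions of -0.02 ± 0.32 and -0.02 ± 0.21. Creb1 ran from 4.77 to 5.11 over the 12 arrays and Crem from 4.37 to 4.83, with no lower level in mutants. These probe sets lie just above the filter of log2 4 and may lie outside the deleted parts, so they do not check the genotype labels. The other probe sets of Creb1 and Crem were dimmer and were not tested. Among 7 feedback regulators of MAP kinase and cAMP signalling, 5 interactions were negative, beside 73.5% of all probe sets. Apart from Rgs4 and Sik1, those of Dusp3, a phosphatase, and Spry4, a Sprouty protein, were -0.0041 and 0.08.

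Counts of negative interactions here are read beside 73.5% of all probe sets. That share was 82.8% at a mean log2 value of 6 to 8 and 91.1% at 8 to 10. Of the voltage-gated and inward rectifier channels 21 of 68 were tested, 19 with a negative interaction and a median of -0.22 (-0.10 without both doubted arrays). Kcnj2 apart, no channel had an unadjusted p under 0.05. Kcnj4 and Kcnj9, other inward rectifiers, had -0.22 ± 0.14 and -0.16 ± 0.35, and differed by 0.03 and -0.26 between treatments in controls. Kcnq5, an M-current channel, had -0.996 ± 0.94, and 0.19 ± 0.18 on a second probe set. Among glutamate receptors and postsynaptic genes 8 of 11 were negative, with a median of -0.14 (0.03 without both doubted arrays), and in the presynaptic vesicle cycle 11 of 14, with -0.15 (0.0016). All 6 inhibitory receptor genes and all 9 oxidative phosphorylation genes were negative, with medians of -0.44 and -0.29 that were -0.0091 and -0.07 without both doubted arrays. Of 8 sterol synthesis genes 6 had intervals inside 2-fold, and the median was -0.03. Mvd, mevalonate decarboxylase, differed by 0.70 between treatments in controls and 0.76 in mutants.

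Markers of other cells moved with the doubted arrays. The 6 interneuron markers tested had a median interaction of -0.48, which was 0.01 without both arrays, and the 4 microglial markers -0.46, which was -0.11. The summed linear signal of the microglial markers was 849 to 966 on control saline, 1001 to 1710 on control kainate, 1219 to 1440 on mutant saline and 599 to 1582 on mutant kainate arrays. Gfap, the astrocyte filament, stood at 11.51, 11.53 and 12.95 on control kainate arrays and 12.82, 13.03 and 11.55 on mutant kainate arrays, so replicate 3 of each group again lay near the other genotype. Its interaction was -0.93 ± 0.69, and over the 6 astrocyte markers the median was -0.13. The 4 oligodendrocyte markers had -0.29 (-0.07 without both arrays) and the 5 dentate gyrus markers -0.23 (-0.05). The part of these cells in the results was not tested.

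Promoter motifs were as frequent as follows. Windows were found for 16 of the 24 responsive genes. The full CRE, read on both strands, was in 2.03% of 27025 genes with a window and in 65 of 1926 tested genes (3.37%), and in 0 of 8 genes higher and 0 of 8 lower after kainate. The short CRE, which the full CRE contains, was in 23.05% of all and 34.6% of tested genes, and in 4 of 8 and 4 of 8. The CArG box was in 1.81% of all and 1.40% of tested genes and in none of the 16. The median interaction was -0.18 for tested genes with a full CRE and -0.12 for those without, with quartiles of -0.39 and -0.0047 against -0.37 and -0.0028. A match is a description of these letters in this window and not of binding.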

How the data were processed

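RNA of 12 hippocampal pools was measured on 12 one-colour arrays. The authors deposited GCRMA values on the log2 scale, made in R 2.4.1 per the submitters' processing notes, and these were used as deposited. Of 11934 probe sets, 66 control probe sets were left out and 3541 that reached log2 4 on 3 or more arrays were tested, while 8327 dimmer ones were not. A model with 1 mean a group was fitted in limma 3.58.1 (R 4.3.3) with Benjamini-Hochberg adjustment over the 3541, a threshold of 0.05 and two-sided tests, with 8 residual degrees of freedom. The interaction fit was run on simulated data with independent errors and the same spread in every group. The measured groups did not spread alike, so no conclusion is drawn from that run. Gene symbols came from the platform annotation, for 2713 tested probe sets with 1 symbol, and promoters from RefSeq (GRCm38.p6). Genes named were Creb1 and Crem, every gene past the threshold on the averaged kainate difference, filled up to the 14 highest and 10 lowest with an unadjusted p under 0.01 and a mean of at least 5 in the higher treatment (1 probe set a gene), the 10 lowest p on the interaction in each direction, and up to 4 a list. The genes and lists were chosen with earlier results of these data known. All 25 lists were used. None of the genes of 2 lists, heat shock and unfolded protein response and sex-linked transcripts, was tested. Labels call the arrays biological replicates. The number of arrays limits precision.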

Additional observations from a re-analysis of the deposited data

How the results depend on the processing

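The interaction had 0 adjusted calls under every one of the 23 other settings. The counts of kainate calls behind it moved, and the cause was not tested. In control mice 1 probe set passed with all arrays. The count was 51 with array weights, 2 with a batch block, 4 with a filter at log2 6, 6 with only control arrays, 3 after a further quantile normalization and 14 on replicates 2 and 3 only. It was 5 without both doubted arrays, 7 without them and with the batch block, and 2 without the array labelled control kainate 3 and with the batch block. In mutant mice 1 passed, and the count was 26 with array weights, 2 with a batch block, 0 with no filter, 0 with only mutant arrays, 4 after quantile normalization, 70 on replicates 2 and 3 only, 3 without both doubted arrays and 5 without them and with the batch block. Averaged over genotypes 5 passed, and the count was 482 with array weights, 9 after quantile normalization, 205 on replicates 2 and 3 only, 9 without both doubted arrays and 20 without them and with the batch block. With the replicate number as a block the counts were 3 in controls, 2 in mutants, 5 for the average and 0 for the interaction, with the estimates unchanged, and the interval of the Rgs4 interaction then included 0. The labels do not say that numbers pair pools, and correlations of same-numbered deviations ran from -0.08 to 0.86, 10 of 12 of them over 0.1, so the pairing did not hold for all pairs. Leaving out 1 array gave 1 to 4 in controls, 0 to 67 in mutants and 5 to 56 for the average, with the highest mutant and average counts without mutant kainate 1, and 0 for the interaction.

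Among 111 named probe sets the interaction of Sfxn4 was 0.0255 after quantile normalization, that of Tshz2 was 0.38 on replicates 2 and 3 only and from -0.45 to 0.28 when 1 array was left out, the highest without control kainate replicate 1, and that of Nsdhl was 0.43 with array weights, each turned in sign from the value with all arrays. Leaving out 1 array at a time, 1148 comparisons of single probe sets kept their direction and side of 0.05, 46 kept their direction and lost an unadjusted p under 0.05, 29 kept it and gained one, 108 changed sign with no such p in either fit, and 1, of Tshz2, changed sign with one. Values near the array's floor, such as Gm13889 after saline, limit what a fold can show there.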
